A study of Mus musculus with 24 samples.

Results

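The Notch receptors Notch1, Notch2 and Notch3, the ligands Jag1, Jag2 and Dll1, the DNA-binding factor Rbpj and the target genes Hes1, Hey1 and Nrarp were followed across mouse pancreatic organoids. They were chosen by symbol, all 10 were found among the 19895 entries of the expression table, and all 10 passed the filter that left 11438 genes for testing. Organoids are 3-dimensional cultures of epithelium. Normal (N) organoids were grown from duct isolates of C57Bl/6J pancreas, and tumour (KP) organoids from pancreatic tumours of mice with Pdx1-Cre and a Trp53 +/LSL-R172H allele. The Pdx1 promoter drives Cre in the pancreatic epithelium and its progenitors, so mutant alleles are switched on there. Organoids of each type received vehicle or CR-31, also named CR1-31-b, a rocaglate that inhibits the RNA helicase eIF4A, at 10 nM for 1 h. All were grown without EGF and N-acetylcysteine and saw cycloheximide, which freezes ribosomes on mRNA, in the last 5 min. From each lysate, mRNA bound to at least 3 ribosomes (polysome mRNA) and total mRNA were sequenced. With 3 replicates of each of the 4 groups this gave 12 lysates and 24 libraries, of 47308461 to 267463046 counts each. The age and sex of the mice are not given, and nothing says that replicates came from separate animals, so p-values measure the spread between these samples.

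Notch signalling passes between neighbouring cells. A Jagged or Delta-like ligand on one cell binds a Notch receptor on the next, proteases cut the receptor, and the freed intracellular domain joins Rbpj on DNA to switch on targets such as Hes1, Hey1 and Nrarp. In the pancreas, Hes1 is known from duct and centroacinar cells, and Notch signalling holds progenitors back from differentiating.

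Markers were read in the total mRNA libraries only. Duct epithelium markers fitted the labelled origin, with 9 of 10 above 1 RPKM (reads scaled for transcript length and library size) in every total mRNA library. Their summed level ran from 4739 to 8164 RPKM in N and from 3592 to 5980 in KP libraries. The 8 acinar markers summed to 3.11 to 3.96 RPKM in N and 2.82 to 3.62 in KP, nearly all of it Cela1, with Cpa1 and Cpb1 at 0. All 8 endocrine, 8 fibroblast and 5 endothelial markers stayed under 1 RPKM in every total mRNA library. Of the 5 immune markers 4 were under 1, and the list summed to 4.14 to 19.6 RPKM in N and 1.46 to 3.44 in KP through Cd68. The part of these marker differences in the results on the Notch genes was not tested. In bulk samples fewer cells of a type and less RNA per cell cannot be told apart.

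Some libraries stood apart. In N replicate 3 the vehicle polysome library resembled the CR-31 total library (r = 0.989 across genes) more than the CR-31 polysome library (0.966), and the vehicle total library resembled the CR-31 polysome library (0.989) more than the CR-31 total library (0.973). Fraction or treatment labels of this replicate therefore go against the data, and the comparisons of organoid types, treatments and fractions are given with and without it where it moves a call. The tests between replicates and the correlations between genes include it. The CR-31 total library of KP replicate 1 correlated at 0.961 to 0.977 with the other libraries of its replicate, which correlated with each other at 0.99 to 0.991. N and KP libraries were sequenced on separate lanes, so organoid type and lane cannot be told apart. Lane also varied within each type, and the CR-31 results with lane as a term are given below.

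Hes1, a transcriptional repressor of the basic helix-loop-helix family, had the highest level of the 10 genes per transcript length. Its total mRNA reached 54.7 ± 15.1 RPKM in vehicle-treated N and 46.1 ± 7.26 in vehicle-treated KP organoids (mean ± SD, n = 3). In N, Rbpj at 12.8 ± 2.72 RPKM and Nrarp at 11.7 ± 5.1 followed, then Jag1 at 5.56 ± 4.24 and Jag2 at 5.08 ± 2.35. The receptors and Dll1 were lower, from 2.06 RPKM for Notch2 and 1.86 for Dll1 to 1.09 for Notch1 and 0.863 for Notch3, and Hey1 was lowest at 0.75 ± 0.622. In this order only Hes1 was clear of its neighbour, since the ranges of all other neighbours overlapped. In KP organoids the order was Nrarp (15.8 ± 1.35 RPKM), Rbpj (12.7), Jag2 (10.4 ± 2.75), Jag1 (4.28), Notch1 (1.95), Notch2 (1.78), Notch3 (1.00), Dll1 (1.00) and Hey1 (0.0542 ± 0.0412). There the ranges of neighbours did not overlap between Hes1 and Nrarp, Jag2 and Jag1, Jag1 and Notch1, Notch2 and Notch3, and Dll1 and Hey1.

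**Figure D1:**
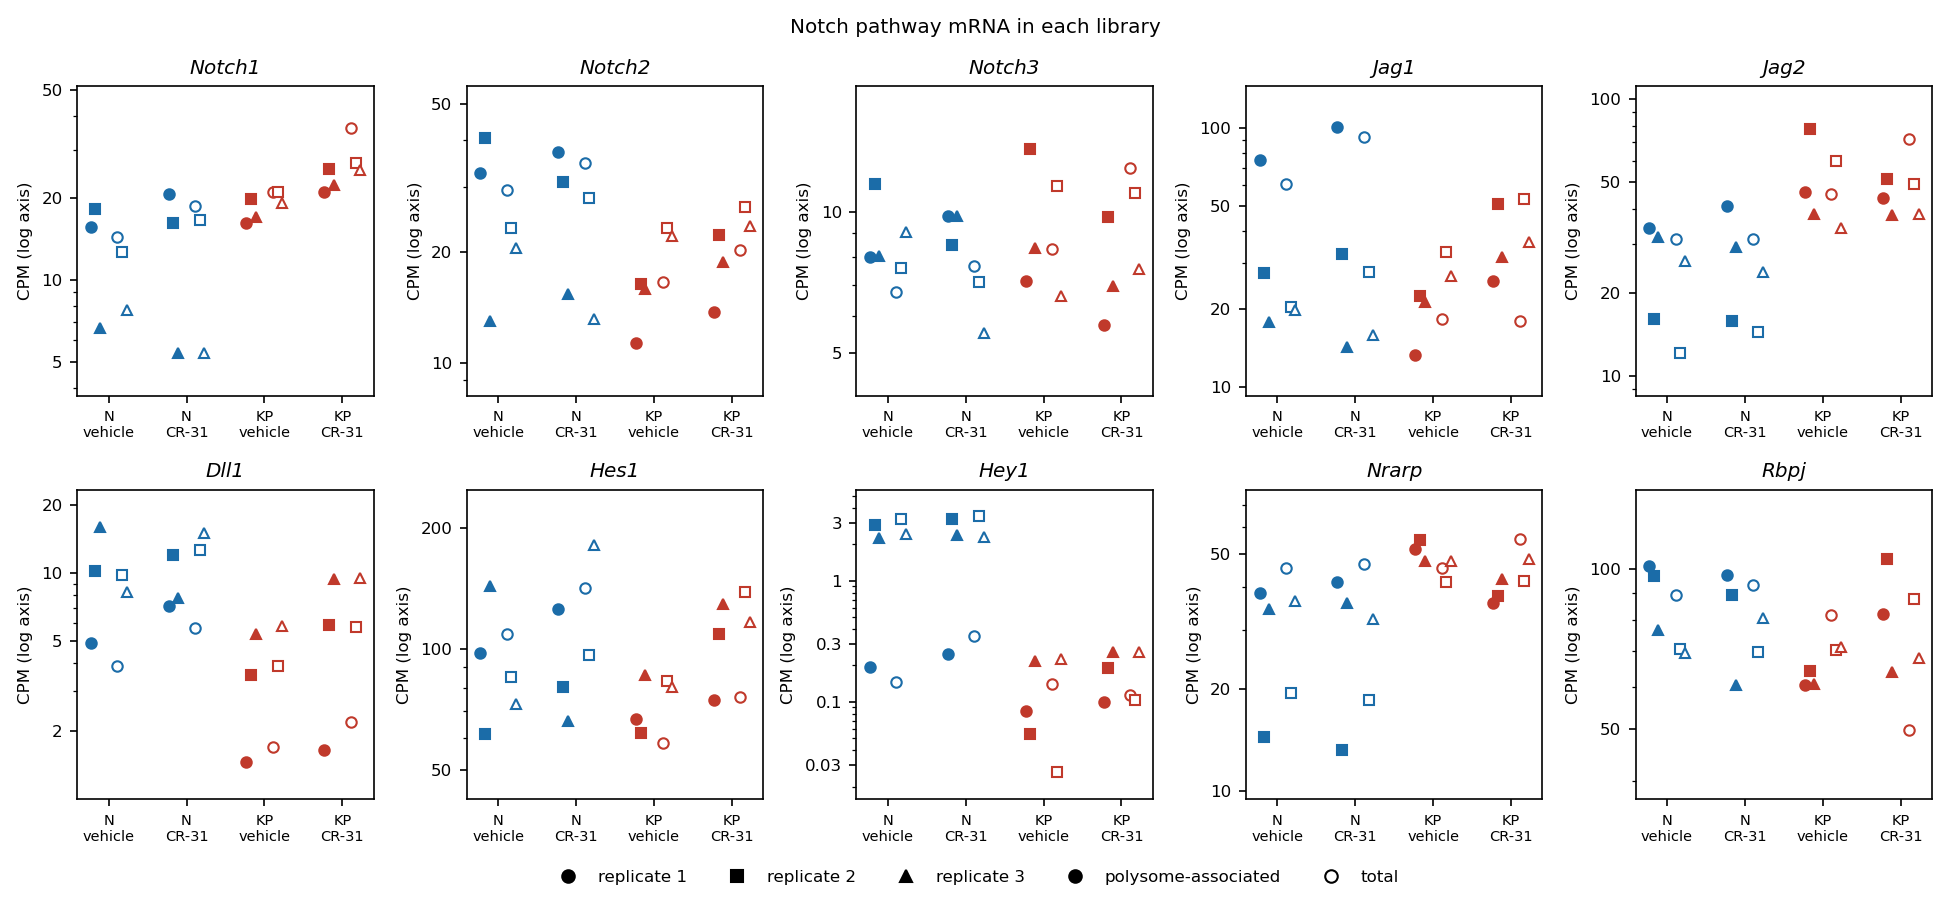
CPM (counts scaled to library size, log axis, a scale of its own for each gene) of the 10 Notch pathway genes in each library, with filled symbols for polysome and open symbols for total mRNA, blue for N, red for KP and a shape for each replicate. Hey1 lies at 0.146 to 0.35 CPM in N replicate 1, near the KP libraries and far below N replicates 2 and 3, while Jag1 is highest in N replicate 1.

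The first comparison asked how KP organoids differ from N organoids under vehicle. Changes were called at a Benjamini-Hochberg adjusted p under 0.25 in edgeR's quasi-likelihood test across all tested genes. In polysome mRNA 6 of the 10 genes were called, of which Jag2 and Nrarp were higher and Notch2, Dll1, Hey1 and Rbpj lower in KP. Over all genes 43.1% were called there, 20.9% higher and 22.2% lower. In total mRNA 3 of the 10 were called, Notch1 and Jag2 higher and Hey1 lower, against 28.5% of all genes, 13.1% higher and 15.4% lower. The median log2 fold change of the 10 genes was −0.53 in polysome and −0.14 in total mRNA, against −0.03 over all genes in each.

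Among the receptors, Notch2 was lower and Notch1 higher in KP organoids, each in 1 of the fractions. Notch2 polysome mRNA stood at 32.6, 40.5 and 13 CPM (counts scaled to library size) in N replicates 1, 2 and 3, and at 11.3, 16.4 and 15.8 in KP. N replicate 3 lay inside the KP range and the other N replicates far above it. The log2 fold change was −0.98 ± 0.41 (SE, adjusted p = 0.123). It was −1.34 (adjusted p = 0.00818) without N replicate 3, and was no longer called without N replicate 2 (−0.66, adjusted p = 0.38) or KP replicate 1 (−0.83, adjusted p = 0.34). In total mRNA Notch2 differed by −0.24 (adjusted p = 0.692).

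Notch1 total mRNA was at 14.4, 12.7 and 7.74 CPM in N and at 21, 20.9 and 19.1 in KP, so that every KP library lay above every N library. Its log2 fold change was 0.81 ± 0.39 (adjusted p = 0.228), and this call was lost in 11 of the 18 fits that left out a lysate or a replicate, with values of 0.58 to 0.99. In polysome mRNA Notch1 gave 0.39 ± 0.44 (adjusted p = 0.578), with N replicate 3 at 6.65 CPM and the other libraries at 15.6 to 19.8. Notch3, which is known best from smooth muscle and pericytes, gave 0.08 in polysome and 0.17 in total mRNA. Its polysome range was 8.01 to 11.5 CPM in N and 7.12 to 13.6 in KP, and its polysome sign turned in 6 of the 18 fits.

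Of the ligands, Jag2 was higher and Dll1 lower in KP organoids. Jag2 polysome mRNA stood at 34.1, 16 and 31.9 CPM in N and at 46.3, 78.2 and 38.3 in KP, with no overlap. The log2 fold change was 0.99 ± 0.39 in polysome mRNA (adjusted p = 0.101) and 1.01 ± 0.39 in total mRNA (adjusted p = 0.132). Total mRNA likewise held all KP libraries (45.5, 59.7 and 34.1 CPM) above all N libraries (31.1, 12.1 and 26.1). The polysome call was lost without the vehicle lysate of N replicate 2 (0.72, adjusted p = 0.28) and without KP replicate 2 (0.63, adjusted p = 0.38). The total call was lost in 6 of the 18 fits, without N replicate 2 (0.70), N replicate 3 (1.10, adjusted p = 0.251) or KP replicate 2 (0.79) among them.

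Dll1 polysome mRNA was at 4.94, 10.3 and 16 CPM in N and at 1.47, 3.53 and 5.41 in KP. The lowest N library fell below the highest KP library. Dll1 differed by a log2 fold change of −1.59 ± 0.64 (adjusted p = 0.109), and without N replicate 3 it was −1.14 (adjusted p = 0.27, not called). The call was also lost without the vehicle lysate of KP replicate 1 (−1.22, adjusted p = 0.30) and without KP replicate 2 (−1.60, adjusted p = 0.26). In total mRNA Dll1 gave −0.94 (adjusted p = 0.363), and −1.25 (adjusted p = 0.19) without N replicate 1.

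Jag1 was set apart by N replicate 1. Its polysome mRNA stood at 74.8, 27.6 and 17.8 CPM in N and at 13.3, 22.4 and 21.3 in KP, and its total mRNA at 60.5, 20.3 and 19.9 in N and 18.4, 33 and 26.7 in KP. N replicate 1 lay far above all other vehicle libraries, while N replicate 3 lay inside the KP range in both fractions and N replicate 2 only in total mRNA. Jag1 was not called in polysome mRNA (−1.08 ± 0.65, adjusted p = 0.273). It was called in 4 of the 18 fits that left out a lysate or a replicate, without N replicate 3 (−1.43, adjusted p = 0.0809) among them, and in total mRNA its sign turned from −0.37 to 0.37 without N replicate 1.

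Hey1, a repressor related to Hes1 and known from vessel and heart development, had the lowest counts and the widest difference. Its polysome mRNA was at 0.195, 2.88 and 2.27 CPM in N and at 0.0842, 0.054 and 0.217 in KP. N replicate 1 fell inside the KP range and the other N replicates lay above all KP libraries. The log2 fold change was −3.92 ± 1.09 in polysome mRNA (adjusted p = 0.0336) and −3.84 ± 1.13 in total mRNA (adjusted p = 0.0551). Both calls held in all 18 fits that left out a lysate or a replicate, from −4.65 to −3.38 and from −4.48 to −3.25. Under CR-31 the difference was −3.42 in polysome and −3.66 in total mRNA (adjusted p = 0.0744 and 0.056), and both of these calls were lost without KP replicate 1 (−3.12 and −3.48, adjusted p = 0.32 and 0.254). The KP values rest on 2 to 27 counts a library, those of N replicate 1 on 20 to 36, and those of N replicates 2 and 3 on 93 to 819.

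Nrarp, an ankyrin-repeat protein that limits the Notch intracellular domain as a feedback, was higher in KP polysome mRNA. It stood at 38.4, 14.4 and 34.6 CPM in N and at 51.7, 55.1 and 47.7 in KP, with every KP library above every N library, and the log2 fold change was 0.82 ± 0.40 (adjusted p = 0.179). This call was lost in 6 of the 18 fits, without the vehicle lysate of N replicate 2 (0.50) and without any of KP replicates 1, 2 and 3 (0.82, 0.77 and 0.85). In total mRNA Nrarp gave 0.41 (adjusted p = 0.503), with N at 45.6, 19.6 and 36.4 CPM and KP at 45.5, 41.5 and 47.7, so the groups overlapped.

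Hes1, in contrast to Hey1, was not called. Its polysome mRNA was at 97.7, 61.6 and 143 CPM in N and at 66.9, 61.7 and 86.1 in KP, and the groups overlapped. The log2 fold change was −0.50 ± 0.34 (adjusted p = 0.327) in polysome and −0.27 (adjusted p = 0.608) in total mRNA. The polysome value was −0.77 without N replicate 2 (adjusted p = 0.18, called) and −0.16 without N replicate 3 (adjusted p = 0.729).

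Rbpj polysome mRNA was at 101, 96.8 and 76.7 CPM in N and at 60.5, 64.4 and 60.8 in KP, with all KP libraries below all N libraries. The log2 fold change was −0.57 ± 0.23 (adjusted p = 0.115), and the call was lost without KP replicate 1 (−0.55, adjusted p = 0.31). Total mRNA of Rbpj overlapped almost fully, at 89.2, 70.7 and 69.4 CPM in N and 81.8, 70.3 and 71.3 in KP, with a log2 fold change of −0.04 (adjusted p = 0.942).

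**Figure D2:**
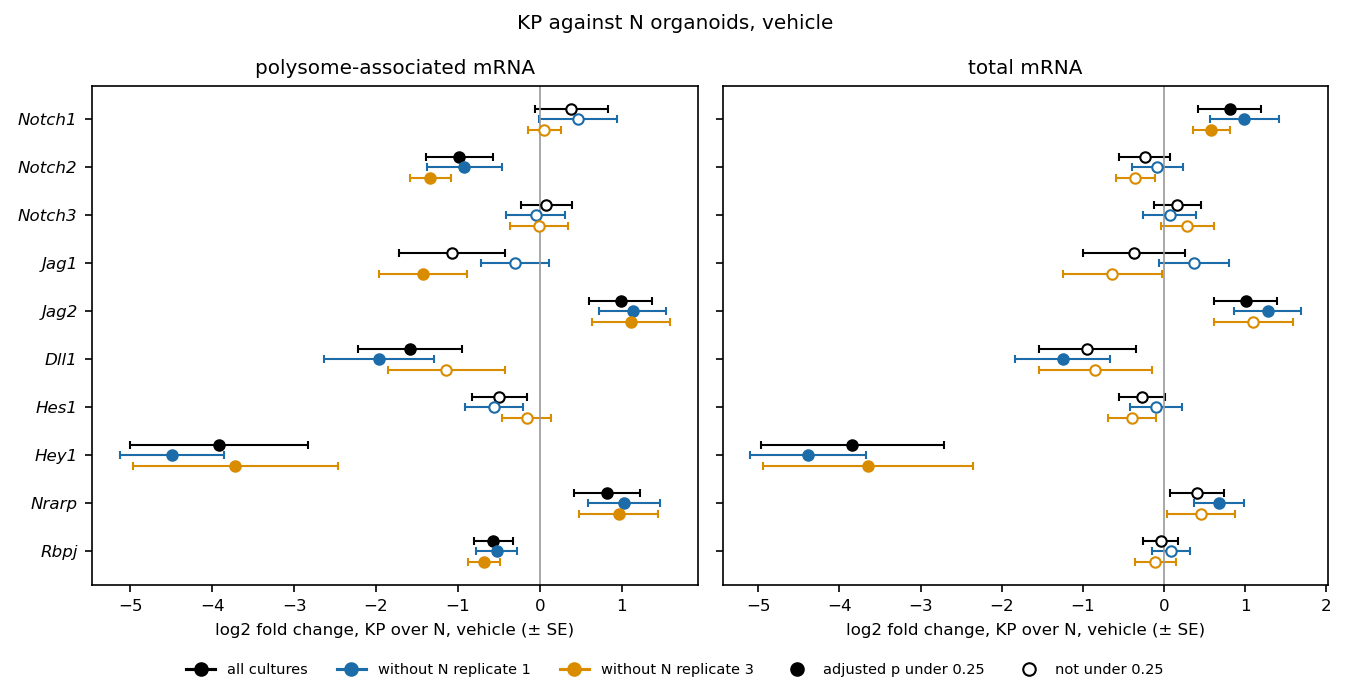
Log2 fold change of KP over N organoids under vehicle (x axis) with its standard error for each of the 10 genes, over all replicates (black), without N replicate 1 (blue) and without N replicate 3 (orange), where filled points passed an adjusted p of 0.25. Hey1 lies far to the left in both fractions, Jag2 to the right in both, and Jag1 in total mRNA changes side without N replicate 1.

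With CR-31 in both arms, KP against N called 1 of the 10 genes in polysome mRNA, Hey1, against 25% of all genes. In total mRNA it called 4 of the 10, against 39.9% of all genes. These were Notch1 (1.12, adjusted p = 0.0848), Notch3 (0.61, adjusted p = 0.187), Jag2 (1.2, adjusted p = 0.0679) and Hey1. All 4 were lost without KP replicate 1, whose CR-31 total library stood apart, with log2 fold changes of 0.95, 0.46, 0.93 and −3.48. In that fit 1823 of all 11522 genes were called in total mRNA. Jag1 in this contrast turned from −0.34 to 0.71 without N replicate 1. Without N replicate 3, 2 of the 10 were called in polysome mRNA, Notch2 (−0.91, adjusted p = 0.0562) and Hey1 (−3.28, adjusted p = 0.125), against 34.4% of all genes. In total mRNA 3 were then called, Notch1 (0.74, adjusted p = 0.0986), Jag2 (1.21, adjusted p = 0.176) and Hey1 (−3.56, adjusted p = 0.141), against 26.6%.

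RefSeq sequences of the 250 bases before the annotated start (GRCm38.p6) were at hand for 8 of the 10 genes, Hes1 and Hey1 being the ones without an entry. They were searched for TGGGAA, the core of the Rbpj recognition motif, and its reverse complement TTCCCA. It was found in 1 of the 8 genes, Rbpj itself. Dll1 and Rbpj have 2 windows each, with a match in 0 and 2 of them. Over all genes it was found in 21.6% of 32851 promoter windows of this length, with 2.77% holding 2 or more matches. These shares count windows and not genes. A match is a description of letters and not a shown binding site. The first Rbpj window is printed because it held 2 matches, and the Nrarp window because Nrarp is a Notch target and held none. The second Rbpj window, chr5:53590236-53590485, overlaps the first and held 1 match, the same TTCCCA, 205 to 200 bases before its start. Both Rbpj windows lie inside the annotated span of the gene (53555779 to 53657445). The capitals mark the matches.
Rbpj, chr5:53590096-53590345, plus strand: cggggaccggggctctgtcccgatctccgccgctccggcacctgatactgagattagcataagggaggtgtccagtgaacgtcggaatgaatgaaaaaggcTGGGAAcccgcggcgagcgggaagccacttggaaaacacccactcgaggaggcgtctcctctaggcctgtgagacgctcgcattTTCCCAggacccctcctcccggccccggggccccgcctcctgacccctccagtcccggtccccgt
Nrarp, chr2:25180508-25180757, plus strand: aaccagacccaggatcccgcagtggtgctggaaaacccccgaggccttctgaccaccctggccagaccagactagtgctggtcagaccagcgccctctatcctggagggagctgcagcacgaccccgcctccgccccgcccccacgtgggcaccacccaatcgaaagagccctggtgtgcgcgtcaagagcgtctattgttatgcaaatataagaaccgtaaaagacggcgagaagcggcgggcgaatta
In the printed Rbpj window TGGGAA lay 149 to 144 bases and TTCCCA 65 to 60 bases before the start. No data here measure binding at either site.

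Replicates of 1 organoid type differed from each other in most of the 10 genes. An F test between replicates within a type, with the treatment in the model, was added after the values were seen. It called 9 of 10 genes in N polysome mRNA, Notch3 being the exception, against 74.7% of all genes. In N total mRNA it called 7 of 10, against 67.3%, without Notch3, Hes1 and Rbpj. In KP it called 6 of 10 in polysome mRNA (Notch2, Notch3, Jag1, Jag2, Dll1 and Hey1, against 44.5% of all genes) and 6 of 10 in total mRNA (Notch3, Jag1, Jag2, Dll1, Hes1 and Hey1, against 36.8%).

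The pattern was sharpest for Jag1 and Hey1 in N organoids. N replicate 1 held 60.5 and 91.6 CPM of Jag1 total mRNA (vehicle and CR-31), against 15.9 to 27.8 in the other N replicates (adjusted p = 0.000443). The same replicate held 0.146 and 0.35 CPM of Hey1, against 2.31 to 3.42 in the others (adjusted p = 0.000503). Jag1 was thus high and Hey1 low in all 4 libraries of N replicate 1. In KP organoids Dll1 total mRNA differed between replicates, at 1.70 and 2.19, 3.87 and 5.78, and 5.84 and 9.52 CPM in replicates 1, 2 and 3 (adjusted p = 0.00133).

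Hes1 and Dll1 in N replicate 3 followed the crossed libraries. Hes1 stood at 143 CPM in the vehicle polysome and 182 in the CR-31 total library, but at 72.8 in the vehicle total and 66.2 in the CR-31 polysome library. Dll1 was likewise at 16 and 15.1 CPM in the first pair and at 8.29 and 7.77 in the second. Values of Hes1 and Dll1 by treatment in this replicate are therefore tied to its labels.

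The second comparison asked what 1 h of CR-31 did within each organoid type. Without pairing the replicates, none of the 10 genes and 0% of all genes were called by edgeR in any fraction of N or KP organoids, or in the difference between the types. At an unadjusted p under 0.05 it picked 0 of the 10 and 406 of all genes in KP polysome mRNA, and 0 and 109 in KP total mRNA. In N it picked 0 and 48 in polysome mRNA and, in total mRNA, 297 genes and 1 of the 10, Hes1 (0.66 ± 0.28). Without N replicate 3 Hes1 was at 0.30 there, and none of the 10 and 75 genes had an unadjusted p under 0.05. DESeq2 called none of the 10, and 0, 8, 0 and 13 of all genes in the same 4 contrasts. With lane as a term edgeR called none of the 10 and 0 genes in these contrasts. The median log2 change of the 10 genes was then 0.209 in KP polysome and 0.124 in KP total mRNA, against 0.406 and 0.239 without the term. In N it was 0.0872 and 0.188, against 0.0404 and 0.079. Lane was not a term in the block fits described next. Vehicle and CR-31 libraries of the same replicate number deviated together, so a fit that blocked on replicates inside each type was also made.

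With the replicate block, CR-31 changed 4 of the 10 genes in KP polysome mRNA, against 19.3% of all genes. Notch1 (0.38 ± 0.16, adjusted p = 0.235), Jag1 (0.90 ± 0.18, adjusted p = 0.192) and Rbpj (0.41 ± 0.16, adjusted p = 0.215) rose, and Nrarp (−0.42 ± 0.14, adjusted p = 0.193) fell. None of the 10 was called in N polysome mRNA or in total mRNA of either type under this block. In the block fit without N replicate 3, 9 of the 10 were called in KP polysome mRNA, all but Hey1, against 54.2% of all genes. Without KP replicate 1 the block fit called none of the 10 and 1 gene in all. For the difference of the CR-31 effects between the types in polysome mRNA, the block fit by edgeR called none of the 10 and 0 genes, both over all replicates and without KP replicate 1. At an unadjusted p under 0.05 it picked 1623 genes over all replicates, among them Jag1, Nrarp and Rbpj, and 595 without KP replicate 1, among them Jag1. Calls of this difference given here come only from the block fit without N replicate 3, which was chosen after the values were seen.

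Jag1 rose the most among these. KP polysome mRNA of Jag1 went from 13.3, 22.4 and 21.3 CPM under vehicle to 25.7, 50.9 and 31.8 under CR-31 in replicates 1, 2 and 3. Each replicate rose, by 0.576 to 1.18 on the log2 scale, and every CR-31 library lay above every vehicle library. Jag1 total mRNA rose in 2 of 3 KP replicates, with a range of −0.03 to 0.68. In N polysome mRNA it went from 74.8, 27.6 and 17.8 to 101, 32.4 and 14.2 CPM, higher in 2 of 3. In the block fit without N replicate 3, Jag1 gave 0.90 ± 0.11 in KP (adjusted p = 0.000437) and 0.34 in N polysome mRNA (adjusted p = 0.208), and the difference between the types was 0.56 (adjusted p = 0.104). Over all replicates the block fit gave a difference of 0.79 (adjusted p = 0.346, not called).

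Notch1 rose by nearly the same amount in each KP replicate, from 16.1, 19.8 and 17 to 21, 25.5 and 22.3 CPM in polysome mRNA. The log2 ratios ran from 0.368 to 0.389, and the vehicle and CR-31 groups did not overlap. Notch1 total mRNA was also higher in all 3 KP replicates, by 0.354 to 0.78, but it was not called. In N polysome mRNA Notch1 was higher in 1 of 3 replicates.

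Nrarp polysome mRNA went from 51.7, 55.1 and 47.7 CPM to 35.8, 37.8 and 42.4 in KP replicates 1, 2 and 3. All CR-31 libraries lay below all vehicle libraries, with log2 ratios of −0.544 to −0.172. Nrarp total mRNA differed by 0.29, 0.00 and 0.02 on the log2 scale in KP replicates 1, 2 and 3 and was not called. The value away from 0 is that of KP replicate 1, whose CR-31 total library stood apart. In N polysome mRNA Nrarp was higher in 2 of 3 replicates, within −0.12 to 0.11. Without N replicate 3, its block-fit difference between KP and N was −0.42 (adjusted p = 0.146), and over all replicates it was −0.43 (adjusted p = 0.352, not called).

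Rbpj polysome mRNA rose in KP from 60.5, 64.4 and 60.8 to 82.2, 104 and 64.1 CPM, by 0.0755 to 0.698 on the log2 scale. KP replicate 3 barely moved and the other KP replicates rose clearly. Rbpj total mRNA differed by −0.71, 0.32 and −0.07 in KP replicates 1, 2 and 3 and was not called. The value of −0.71 is that of KP replicate 1, whose CR-31 total library stood apart. In N polysome mRNA Rbpj was lower in all 3 replicates, by −0.34 to −0.055, from 101, 96.8 and 76.7 to 97.5, 89.2 and 60.6 CPM. The difference between the types was 0.59 ± 0.33 without the block (adjusted p = 0.999) and 0.58 with it (adjusted p = 0.346), neither called. In the block fit without N replicate 3 it was 0.48 (adjusted p = 0.139).

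Hes1 and Dll1 were higher under CR-31 in total mRNA of all 3 N and all 3 KP replicates. Neither was called in total mRNA, except in N in the block fit without KP replicate 1 (Hes1 0.63, adjusted p = 0.235, and Dll1 0.60, adjusted p = 0.203), where 14.7% of all genes were called. That fit keeps N replicate 3, whose libraries go against their labels. Hes1 total mRNA went from 109, 85.0 and 72.8 to 142, 96.6 and 182 CPM in N, and from 58.2, 83.1 and 80.2 to 76.2, 138 and 117 in KP. The largest step, in N replicate 3, is that of the crossed libraries. In KP polysome mRNA Hes1 was higher by 0.161 to 0.821 and was called only in the block fit without N replicate 3 (0.52, adjusted p = 0.00592). Dll1 in total mRNA was higher by 0.375 to 0.866 in N, the largest step again being that of N replicate 3, and by 0.366 to 0.706 in KP.

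In the block fit without N replicate 3, the other genes called in KP polysome mRNA were Notch2 (0.32, adjusted p = 0.0508), Dll1 (0.59, adjusted p = 0.0122), Notch3 (−0.36, adjusted p = 0.0724) and Jag2 (−0.23, adjusted p = 0.147). Notch3 and Jag2 were lower under CR-31 in all 3 KP replicates. The same fit called Jag1 and Hes1 (0.38, adjusted p = 0.186) in N polysome mRNA, against 14.6% of all genes. It called Notch2 (0.41, adjusted p = 0.191), Jag1, Nrarp and Rbpj in the difference between the types, against 26.6% of all genes. It called none of the 10 in KP total mRNA.

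**Figure D3:**
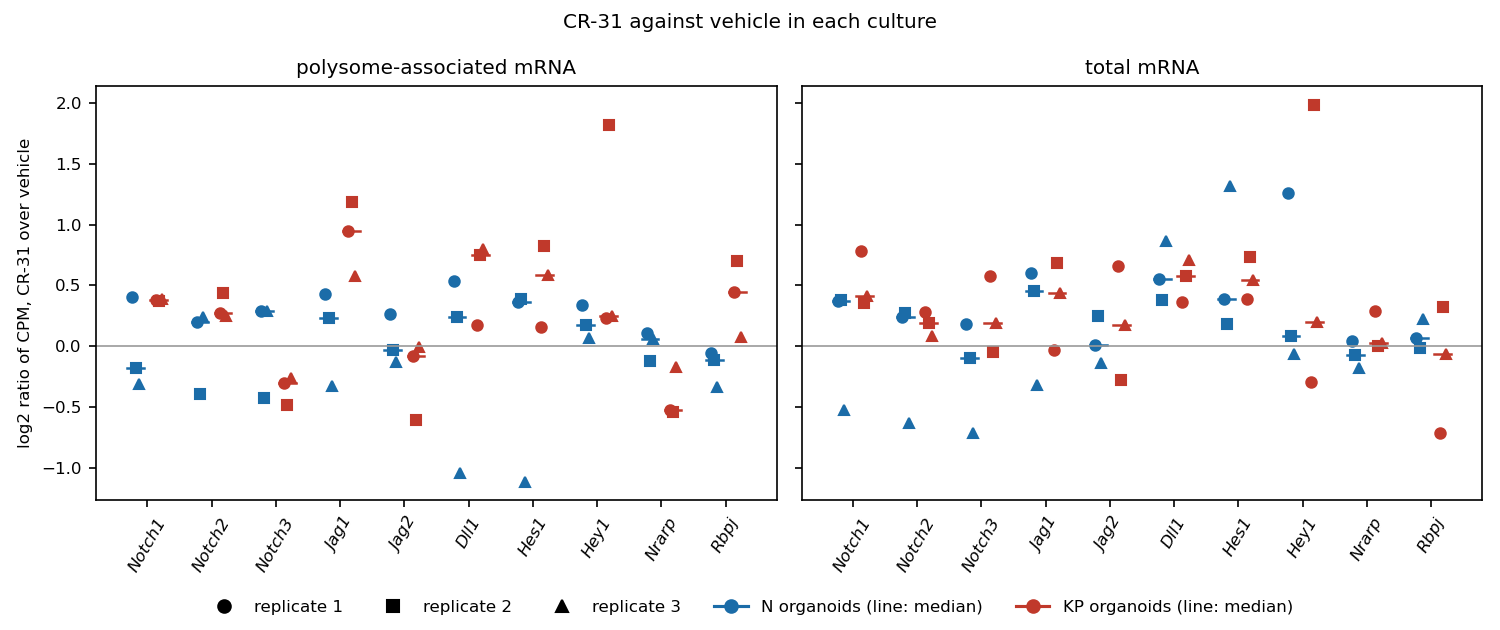
Log2 ratio of CR-31 over vehicle CPM (y axis) in each replicate (points, with a line at the median of 3) for the 10 genes, in polysome and total mRNA of N (blue) and KP (red) organoids. All 3 KP replicates lie above 0 in polysome mRNA for Jag1, Notch1 and Rbpj and below 0 for Nrarp, while Rbpj lies below 0 in all 3 N replicates.

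The third comparison set polysome against total mRNA of the same lysates, a measure of how much of an mRNA sits on many ribosomes (translational efficiency). In vehicle-treated KP organoids 3 of the 10 genes were called, all lower in polysome than in total mRNA, against 27.5% of all genes called in either direction. Of all 11438 genes 1526 were called lower and 1620 higher. The 3 called Notch genes were Notch2 (−0.60 ± 0.20, adjusted p = 0.114), Jag1 (−0.54 ± 0.17, adjusted p = 0.0967) and Rbpj (−0.36 ± 0.18, adjusted p = 0.245). Per lysate, the log2 ratio of polysome to total mRNA lay between −0.657 and −0.564 for Notch2, between −0.649 and −0.409 for Jag1 and between −0.541 and −0.219 for Rbpj, below 0 in all 3 KP replicates. In vehicle-treated N organoids none of the 10 was called by edgeR, against 15.2% of all genes, and at an unadjusted p under 0.05 it picked 1995 genes and none of the 10. The Notch2 ratio in N ran from −0.704 to 0.774, with N replicate 3 the only one below 0. Notch2 and Jag1 were no longer called without KP replicate 2 (adjusted p = 0.54 and 0.56) or KP replicate 3 (adjusted p = 0.34 and 0.29). Notch2 was also lost without KP replicate 1 (adjusted p = 0.29), Jag1 without the vehicle lysate of that replicate (adjusted p = 0.34), and Rbpj in 12 of the 18 fits.

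Without N replicate 3, whose polysome and total libraries went against their labels, more genes were called. In KP they were Notch1 (−0.30), Notch2, Jag1, Dll1 (−0.25) and Rbpj, against 47.2% of all genes. In N they were Notch2, which was higher in polysome mRNA (0.41, adjusted p = 0.107), and Hes1 (−0.38, adjusted p = 0.176) and Nrarp (−0.41, adjusted p = 0.102), which were lower, against 35.3% of all genes.

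The difference of translational efficiency between KP and N under vehicle was not called by edgeR for any of the 10 genes or for any gene (0%). At an unadjusted p under 0.05 it picked 1296 genes, among them Notch2 (−0.66), Jag1 (−0.69) and Rbpj (−0.57). A regression of polysome on total values, in its place, called 1267 genes with Jag1 (−0.65, adjusted p = 0.23) as the only 1 of the 10. Without N replicate 3 the edgeR test called 35.3% of all genes and 5 of the 10. Notch1 (−0.56, adjusted p = 0.135), Notch2 (−1.01, adjusted p = 0.0736), Jag1 (−0.85, adjusted p = 0.0814) and Rbpj (−0.61, adjusted p = 0.15) were lower and Nrarp (0.51, adjusted p = 0.125) higher in KP. For the change of translational efficiency under CR-31, edgeR called none of the 10 and 0% of all genes in either type. At an unadjusted p under 0.05 it picked 627 genes in KP, among them Jag1 (0.60 ± 0.24, adjusted p = 0.529) and Rbpj (0.62 ± 0.25, adjusted p = 0.529), and 328 genes and 1 of the 10, Dll1 (−0.70), in N. Without KP replicate 1, 77 genes and none of the 10 passed that unadjusted level in KP, with Jag1 at 0.36 and Rbpj at 0.30. In N, 61 genes and none of the 10 passed it without N replicate 3.

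**Figure D4:**
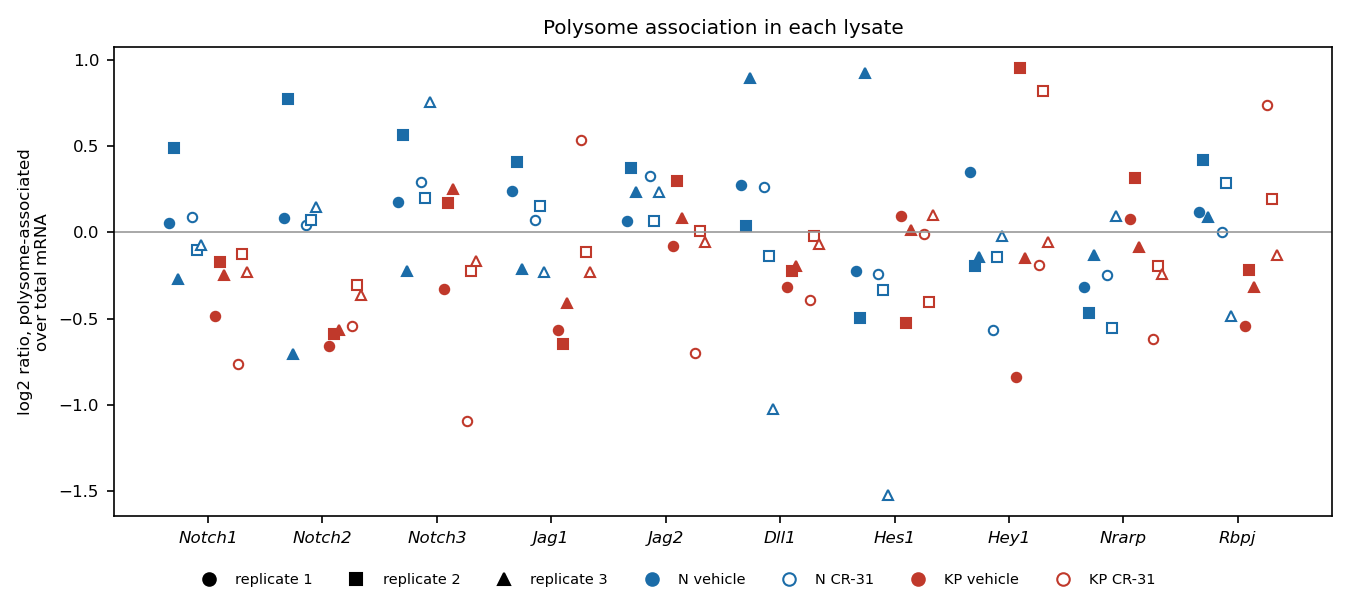
Log2 ratio of polysome to total CPM (y axis) of the 10 genes in each lysate, with a shape for each replicate, blue for N, red for KP, filled symbols for vehicle and open symbols for CR-31. In vehicle-treated KP organoids Notch2, Jag1 and Rbpj lie below 0 in all 3 replicates, and for Hes1 and Dll1 the vehicle lysate of N replicate 3 lies highest and its CR-31 lysate lowest.

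Leaving out a replicate also moved the share of all genes called in KP against N under vehicle. Without N replicate 3 the share was 52.4% in polysome and 19.1% in total mRNA, with 6 and 2 of the 10 called. These were Notch2, Jag1, Jag2, Hey1, Nrarp and Rbpj in polysome mRNA, and Notch1 (0.58, adjusted p = 0.192) and Hey1 (−3.65, adjusted p = 0.156) in total mRNA. Without N replicate 1 it was 45.1% and 37.6%. The 6 genes called in polysome mRNA were then those called over all lysates, with Hey1 at −4.49 ± 0.64, and in total mRNA 5 were called, Notch1 (0.99), Jag2 (1.28), Nrarp (0.68), Dll1 (−1.25) and Hey1 (−4.39).

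A list of 60 other genes of the pathway covers the remaining receptor and ligands, receptor cleavage and glycosylation, ligand endocytosis, cofactors, receptor turnover and the other HES and HEY genes. Of these 44 were tested, 8 share an entry with another gene and 8 had a count of 0 in at least 1 library (Dll3, Dll4, Dlk1, Hes2, Hes3, Hes5, Hey2 and Heyl). In KP against N polysome mRNA under vehicle 21 of the 44 were called, 10 higher and 11 lower, which is 47.7% against 43.1% of all genes. Their median log2 fold change was −0.06. In total mRNA 9 of the 44 (20.5%) were called, 2 higher and 7 lower, against 28.5% of all genes, with a median of 0.06. In KP polysome mRNA with the replicate block, CR-31 changed 14 of the 44 (31.8%), 7 in each direction, against 19.3% of all genes. Without the block 0 genes were called there, and without KP replicate 1 the block fit lost nearly all its calls, as given above.

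Of the 6 genes for enzymes that put sugars on Notch receptors, 4 were called in polysome and 3 in total mRNA, where 43.1% and 28.5% of all genes were called. Lfng, a Fringe glycosyltransferase that alters which ligands a receptor answers to, was lower, at −2.01 in polysome (adjusted p = 0.0215) and −2.55 on the log2 scale in total mRNA (adjusted p = 0.00113). Its total mRNA was at 59.6 to 80.6 CPM in N and 6.81 to 16 in KP. Rfng, its relative, was higher in KP polysome mRNA (1.16, adjusted p = 0.0237) and not called in total mRNA (0.42, adjusted p = 0.342). Mfng was called in polysome mRNA (1.75, adjusted p = 0.148) on 4 to 48 counts a library, and without KP replicate 3 it was at 0.10 (adjusted p = 0.94).

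Both Neuralized ubiquitin ligases, which drive ligand endocytosis, were called in opposite directions. Neurl1a was lower (−2.47 in polysome and −3.27 in total mRNA, adjusted p = 0.0436 and 0.0115), and Neurl1b was higher in KP (1.62 and 1.53, adjusted p = 0.0128 and 0.00962). Dtx3, a Deltex family member, was lower (−1.27 and −1.78, adjusted p = 0.0548 and 0.00437). Calls of Lfng, Neurl1a, Neurl1b and Dtx3 held in all 18 fits that left out a lysate or a replicate, in both fractions. Notch4, the remaining receptor, was lower in total mRNA (−1.19, adjusted p = 0.18) and its call was lost in 8 of the 18 fits.

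Across the 12 total mRNA libraries, the genes whose log2 CPM was most like that of Hes1 were Errfi1 (r = 0.94), Plk2 (0.93) and Ctr9 (0.91). For Jag1 they were Clasp1 (0.95), Cgnl1 (0.945) and Vwa8 (0.94). Among the 10 genes, Jag2 and Nrarp correlated at 0.87, Notch2 and Jag1 at 0.85, and Jag2 and Hey1 at −0.89. These values describe 12 libraries that share replicates and types, and they carry no test.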

How the data were processed

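Polysome and total mRNA of 12 lysates were sequenced. The genotype of the tumour organoids is not reported here in full. The authors aligned reads with HISAT2, discarded multi-mapping reads and counted the rest on coding RefSeq transcripts. The deposited table gives raw counts and RPKM (counts scaled by the authors for transcript length and library size) per entry. The submitters' processing notes name hg38 and GRCh38 although the entries are mouse genes, so the build behind the counts is not settled, and coordinates are printed only for RefSeq promoters of GRCm38.p6. Counting by strand is not given in the sources used here, so antisense overlaps cannot be told apart.

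Entries naming several genes (1042) were left out, and of 18719 single genes the 11438 with a count above 0 in all 24 libraries were tested. The 10 Notch genes, the pathway list and the markers were chosen with earlier results of these data known, and the genes named from the pathway list are those called with a log2 fold change of at least 1 in either fraction. Cir1 is treated in the closing section. Counts were tested in R 4.3.3 with edgeR 4.0.16 (quasi-likelihood, TMM scaling, 4 groups per fraction, Benjamini-Hochberg over all tested genes, called at adjusted p under 0.25). Translational efficiency was the fraction by group interaction over 24 libraries with the lysate as a block. CPM values used TMM-scaled library sizes. Before correlations between libraries 0.5 CPM was added, and nothing was added before correlations between genes. DESeq2 1.42.0, limma 3.58.1 (the regression on total mRNA), other scalings and filters, the sequencing lane, the replicate block and each lysate or replicate left out were alternatives. The scripts were tested on simulated data. Deviations of vehicle and CR-31 libraries with the same number correlated at 0.538 to 0.911 in N and 0.369 to 0.871 in KP, over 0.1 in all 6 pairs of each type, so the numbers pair treatments within a type. Between N and KP they did so in 2 of 6 vehicle and 3 of 6 CR-31 pairs, so the block was set within each type for CR-31 and the fit that joins N and KP by number is only an alternative. Counts of Hey1 and Mfng were low, and their values carry counting error beside the spread between replicates.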

Additional observations from a re-analysis of the deposited data

Results flagged for a closer look

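Rbpj polysome mRNA under CR-31 was lower in all 3 N replicates and higher in all 3 KP replicates, and the medians of the log2 ratios differed by 0.561 (KP minus N). Tested as an interaction by edgeR the difference was 0.59 ± 0.33 (adjusted p = 0.999), and 0.58 (adjusted p = 0.346) with the replicate block. The lowest N value, −0.34, is that of N replicate 3, whose libraries go against their labels, and the other N values are −0.117 and −0.055.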

How the results depend on the processing

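Counts below are of the 10 Notch genes called. With the replicate block, CR-31 called 4 in KP polysome mRNA. KP against N with this block called 3 in polysome and 6 in total mRNA under CR-31 and 5 in total mRNA under vehicle (Dll1 −1.03 and Nrarp 0.50 added), beside 3842, 5224 and 4066 of all 11438 genes. For KP against N that block joins replicates that share only a number, so these counts are not a paired result, while for CR-31 the block was set within each type. In the block fit without N replicate 3, CR-31 called 9 in KP and 2 in N polysome mRNA and 4 in the difference between types, and in the block fit without KP replicate 1 it called 2 in N total mRNA (Hes1 and Dll1). The block fits without a replicate and the fits without both lysates of a replicate were chosen after seeing the data. The regression on total mRNA called 1 gene in KP against N. The cause of these changes was not tested. Under upper quartile scaling Notch3 in KP against N polysome mRNA turned to −0.0281, and Jag1 (−1.14) and Hes1 (−0.58) were called. DESeq2 called Jag1 there too. Notch1 in total mRNA was lost with no filter (0.82), and Rbpj in polysome against total KP mRNA was lost under RLE scaling, other filters and the block.

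Leaving out a lysate or a replicate, KP against N under vehicle called 2 to 7 genes in polysome mRNA, 1 to 5 in total mRNA and 0 to 5 in translational efficiency, beside 2861 to 6071, 1624 to 4322 and 0 to 4086 of all genes. Under CR-31 it called 0 to 3 in polysome and 0 to 6 in total mRNA, beside 955 to 3989 and 1823 to 5291 of all genes. CR-31 against vehicle gave 0 in each of these 18 fits in each type and fraction, so that the 9, 2, 4 and 2 above needed the block as well. The difference between the types gave 0 in polysome mRNA and 0 to 1 in translational efficiency, beside 0 to 1909 of all genes in the latter (Rbpj, called without the CR-31 lysate of N replicate 2). Polysome against total mRNA gave 0 to 5 in KP and 0 to 3 in N, beside 0 to 5470 and 200 to 4097 of all genes. The sign turned for some of the values the text gives of KP against N, none of them called. Notch3 in polysome mRNA ran from −0.24 to 0.27 (−0.0517 without N replicate 1, −0.0114 without N replicate 3). Notch3 in total mRNA ran from −0.0609 to 0.35 (−0.0593 without KP replicate 2, 0.334 without the vehicle lysate of KP replicate 3). Rbpj in total mRNA ran from −0.11 to 0.0894 (0.0065 without KP replicate 2, 0.0148 without KP replicate 3, 0.0856 without N replicate 1). Jag1 in total mRNA ran from −0.64 to 0.37, and under CR-31 from −0.74 to 0.71. Mfng in total mRNA ran from −0.40 to 0.42.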

Other observations

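Cir1, a corepressor that binds Rbpj, was lower in KP in polysome (−0.85, adjusted p = 0.233) and total mRNA (−1.01, adjusted p = 0.196) by edgeR, and these calls were lost in 10 and 8 of the 18 fits that left out a lysate or a replicate.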
